A study of Bos taurus with 6 samples.

Results

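The 40 genes considered here encode enzymes of the citric acid cycle and of the oxidation of fatty acids, the pathways that feed reducing equivalents to the respiratory chain. They were chosen by gene symbol, 16 for the citric acid cycle with its cytosolic counterparts and 24 for fatty acid oxidation. Of the 40 symbols, 38 matched a row among the 36075 genes of the table, each a single row, and ETFB and ECHS1 were not analysed here. Of these 38 genes, 34 had a TPM (the reads of a gene divided by its length and scaled to a fixed library total) of at least 1 in at least 3 libraries and were tested.

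The libraries came from bovine blastocysts, the stage at which an embryo has formed an outer trophectoderm and an inner cell mass. Oocytes with their cumulus cells were taken from slaughterhouse ovaries, matured in vitro for 22 h with 1e-07 mol/L melatonin (MT, a pineal hormone with antioxidant activity) for the MT-treated group or with none for the control group, then fertilised and cultured in vitro to the blastocyst stage. Each group had 3 libraries, and each library held the RNA of a pool of 3 blastocysts. The study's methods place the 3 pools of a group in 3 independent production runs, with all treatments run side by side on oocytes pooled and allocated at random within a run, whereas the labels give replicate numbers without saying which numbers share a run. MT was present during oocyte maturation, and the comparison asks how the transcripts of the resulting blastocysts differ. A TruSeq kit is named in the labels but Smart-seq2, which amplifies full-length cDNA from few cells, in the methods, and which chemistry gave these values is uncertain.

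The citric acid cycle runs in the mitochondrial matrix, where it oxidises the acetyl group of acetyl-CoA to carbon dioxide and loads NADH and FADH2. Fatty acids reach the same acetyl-CoA after they are activated to acyl-CoA, carried across the inner mitochondrial membrane as carnitine esters and shortened in repeated rounds of beta-oxidation. Bovine oocytes and embryos hold large stores of lipid, and beta-oxidation of that lipid is a known source of ATP during maturation and early cleavage.

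Values rested on libraries that differed between the groups in more than these pathways. Between 8854 and 8953 genes were above 0 in the control libraries, and between 14372 and 14408 in the MT-treated libraries. The log2(TPM + 1) values of tested genes correlated at 0.998 to 0.999 among control libraries, at 0.991 to 0.993 among MT-treated libraries and at 0.544 to 0.546 between groups (Pearson's r across genes, which are not independent replicates). TPM keeps no counts, so the number of reads behind a value is unknown here. The paper lists the sequencing depth of each replicate in its supplement, which was not used. The blastocyst label was checked with marker genes. Of 8 trophectoderm markers, 7 were at 1 TPM or more in every control library and 7 in every MT-treated library, and their sum was 11370 to 11720 TPM in control and 10510 to 10860 TPM in MT-treated libraries, although CDX2 was at 0 in the controls (15.03 to 17.2 TPM after MT) and TFAP2A went from 31.5 to 38.9 TPM in control to 0.46 to 0.55 TPM. Inner cell mass markers (4 of 5 listed) summed to 244.8 to 249.2 TPM and 231.9 to 236.9 TPM, most of it POU5F1, while NANOG was at 0 in the controls and at 8.23 to 8.93 TPM after MT. Hypoblast markers, 5 genes of the extraembryonic endoderm, summed to 204.5 to 207.6 TPM in control and 514.4 to 517.0 TPM in MT-treated libraries, and GATA4 was at 0 in both. Cumulus and granulosa markers (9 of 10 listed) summed to 96.1 to 97.7 TPM and 96.9 to 99.5 TPM, with FOXL2, INHA, HAS2, PTX3 and TNFAIP6 at 0 throughout. Oocyte markers (9 genes) summed to 45.6 to 49.3 TPM and 21.6 to 24.0 TPM, and GDF9, NLRP5, ZP2, ZP3 and ZP4 were at 0 throughout. Single markers differed in both directions. From control to MT-treated means, GATA2 was at 7.07 and 49.1 TPM, GATA3 at 19.5 and 36.7, TEAD4 at 19.2 and 22.1, and TFAP2C at 22.4 and 42.4 TPM. KRT8 was at 8695 and 6905 TPM and KRT18 at 2766 and 3654 TPM, and these genes made up nearly all of the trophectoderm sum. SALL4 was at 56.8 and 26.6 TPM, and OOEP at 47.7 and 21.3 TPM. FN1, at 206 and 461 TPM, made up nearly all of the hypoblast sum in control and most of it after MT. SOX17 was at 0 in control and did not exceed 0.20 TPM after MT. GATA6, at 0.20 to 0.44 TPM in control, was at 30.8 to 33.1 TPM after MT, SOX2 did not exceed 0.02 TPM in control and was at 5.88 to 6.95 TPM after MT, and PDGFRA was at 0 and at 22.5 to 24.2 TPM. The cumulus and granulosa sum came from FSHR (18.2 and 16.0 TPM) and CYP11A1 (78.7 and 82.4 TPM). The part of these differences in the results that follow was not tested, and in such bulk libraries fewer cells of a type and less RNA per cell cannot be told apart.

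More members were lower than higher in MT-treated blastocysts at the deposited TPM scale. Of the 34 tested members, 12 were higher, 20 were lower and 2, CPT1A and HADHA, passed in neither direction (limma, adjusted p under 0.05, Benjamini-Hochberg over 11953 tested genes). Among all tested genes 61.6% were higher and 34.1% were lower, against 35.3% and 58.8% of the members. At a change of at least 2-fold, 8 members were higher and 7 lower, or 23.5% and 20.6%, where the table as a whole gave 51.0% and 19.6%. The 3 libraries of a group did not overlap with those of the other group in 32 of the 34 members (94.1%) and in 96.1% of all tested genes, so a lack of overlap was the rule in these data. The median log2 fold change of the members was -0.35, and that of all tested genes was 1.12. This balance depended on the scaling. When each library was centred on the median of 5988 genes detected throughout, which shifted the MT-treated libraries by 0.48 on the log2 scale relative to the controls, 18 members were higher and 11 lower, against 70.4% and 25.4% of all genes. After quantile normalization 11 members were higher and 23 lower, against 46.4% and 44.4%.

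**Figure D1:**
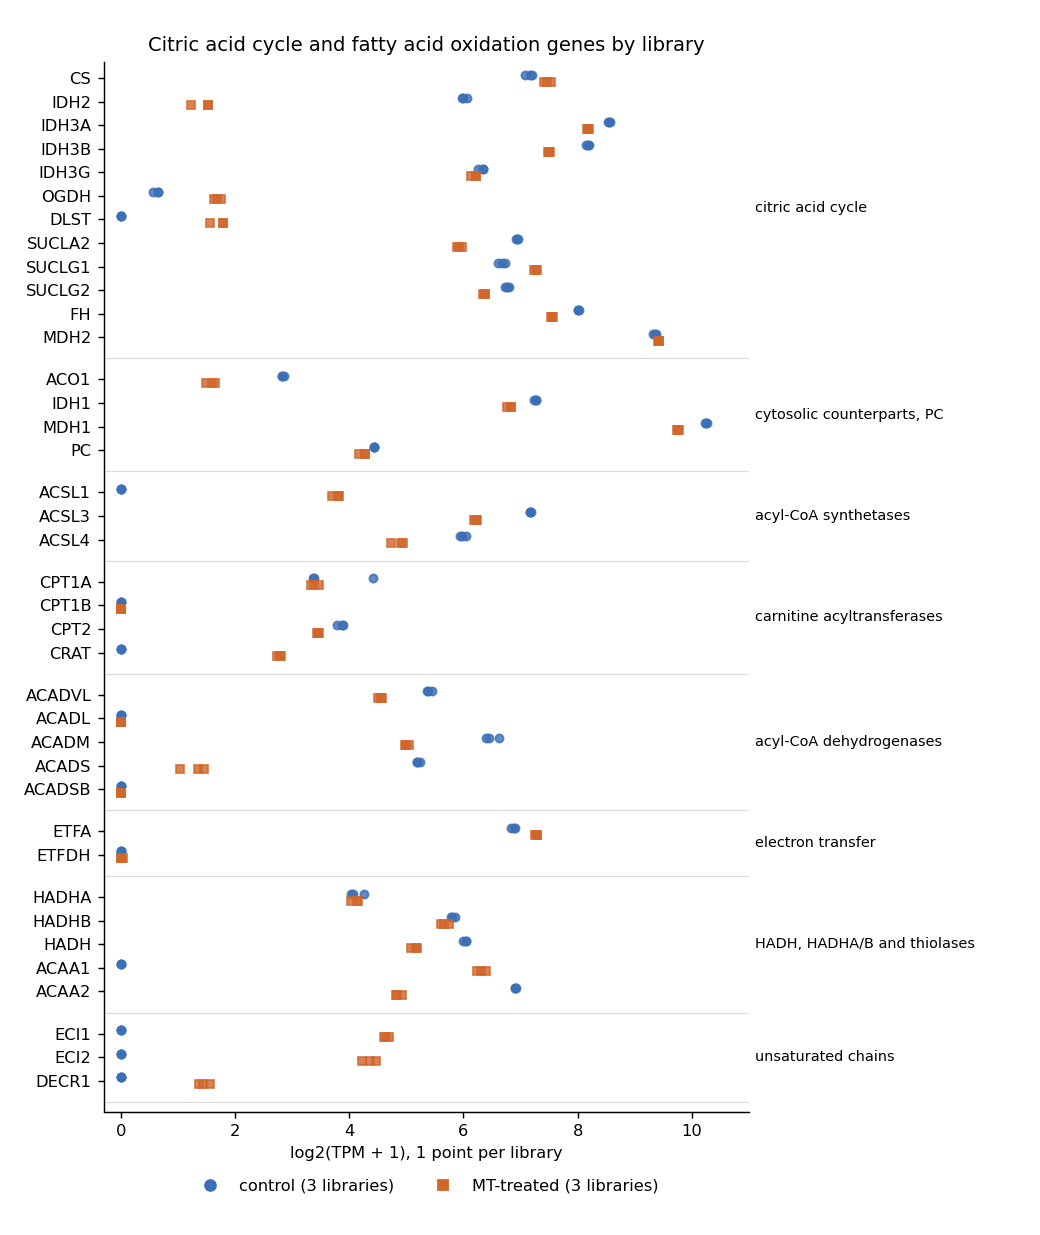
Level of the 38 listed members in each library, as log2(TPM + 1) on the horizontal axis, with circles for the 3 control and squares for the 3 MT-treated libraries and members grouped by role. Points of a group lie close together except for CPT1A, where the third control library stands at 20.3 TPM, and 7 members lie at 0 in all controls and above 1 TPM in every MT-treated library.

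Part of the balance came from genes listed at 0 in all 3 control libraries. These were 7 of the 34 tested members (20.6%) and 33.8% of all tested genes, and no tested member was at 0 in all MT-treated libraries. A value of 0 can be a failed capture or count as well as an absent transcript, and the fitted difference of such a gene is set by the pseudocount, so no fold change is given for these genes as a measured size. All 7, and OGDH, passed the filter only through the MT-treated group and so had to differ. They are the 8 members called higher by at least 2-fold, no adjusted p is given for them, and where the sign of a fitted value is given for DLST or DECR1 under another scaling, it is no measure of size. Among the 27 members above 0 in all 6 libraries, 5 were higher (18.5%) and 20 lower (74.1%), with a median log2 fold change of -0.45. Among the 6925 tested genes with the same property, 40.6% were higher and 52.3% lower, with a median of -0.19. Genes at 0 in the controls were mostly of low or middle abundance in MT-treated blastocysts. They made up 54.5% of tested genes whose mean in MT-treated libraries was 1 to 5 TPM (2 of 6 members), 47.2% from 5 to 20 TPM (3 of 7 members), 23.8% from 20 to 100 TPM (2 of 12 members) and 1.12% from 100 TPM upward (0 of 9 members).

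**Figure D2:**
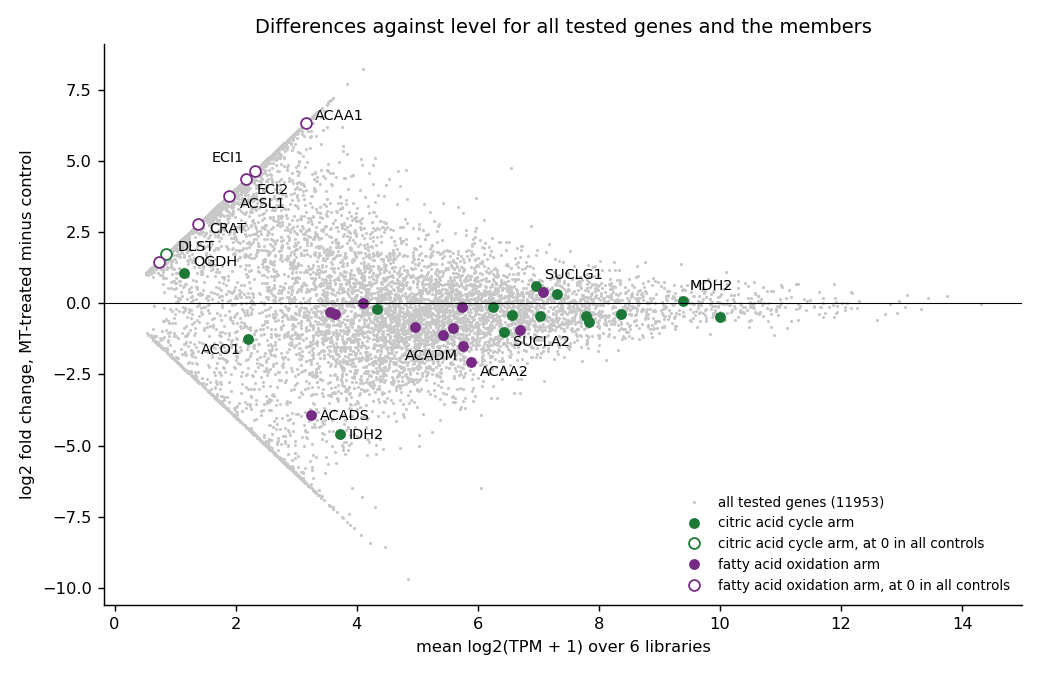
Log2 fold change (MT-treated minus control) against the mean log2(TPM + 1) over 6 libraries for all 11953 tested genes (grey) and the 34 tested members (green, citric acid cycle arm; purple, fatty acid oxidation arm). Open circles mark the 7 members at 0 in all controls, which lie on the upper diagonal edge, where the fold change is set by the pseudocount, and the filled members run from -4.58 for IDH2 to 1.07 for OGDH.

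In the mitochondrial citric acid cycle, 5 of 12 members were higher and 7 lower (41.7% and 58.3%, against 61.6% and 34.1% of all tested genes). OGDH and DLST, among the 5, passed the filter only through the MT-treated group. Of the 11 above 0 in all libraries, 36.4% were higher and 63.6% lower, against 40.6% and 52.3% of all such genes. Citrate synthase (CS), which joins acetyl-CoA to oxaloacetate and opens the cycle, was at 134, 142 and 146 TPM in the control libraries and at 170, 176 and 185 TPM in the MT-treated libraries. Every MT-treated library lay above every control library, and CS rose 1.26-fold, from 140.9 ± 5.97 to 177.2 ± 7.55 TPM (mean ± SD, n = 3), a log2 fold change of 0.33 with a standard error of 0.044 (limma, Benjamini-Hochberg adjusted p = 0.000391).

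Isocitrate dehydrogenase appeared in 4 mitochondrial genes that moved by very different amounts. IDH2 (ENSBTAG00000014093), the matrix enzyme that makes NADPH rather than NADH, was at 62.6, 61.7 and 66.1 TPM in control and at 1.35, 1.89 and 1.86 TPM in MT-treated libraries. It fell from 63.5 ± 2.32 to 1.70 ± 0.303 TPM (SD, n = 3), 37.3-fold lower, with a log2 fold change of -4.58 ± 0.088 (SE, limma, Benjamini-Hochberg adjusted p = 1.91e-08), and its percentile among detected genes went from 74.8 to 24.3. This was the lowest fold change of the 34 tested members, and it stayed at -4.10 and -5.14 under median centring and quantile normalization. The NAD-dependent enzyme is built from a catalytic alpha subunit (IDH3A) and the beta and gamma subunits (IDH3B and IDH3G). IDH3A went from 373.3 ± 2.64 to 288.9 ± 4.26 TPM, IDH3B from 289.0 ± 4.64 to 180.5 ± 2.48 TPM and IDH3G from 78.4 ± 2.88 to 72.1 ± 2.66 TPM (SD, n = 3). The log2 fold changes were -0.37, -0.68 and -0.12 (limma, Benjamini-Hochberg adjusted p = 9.42e-07, 1.15e-07 and 0.027). Only the fall of IDH3B kept its direction under both other scalings, as IDH3A turned to 0.11 and IDH3G to 0.36 under median centring, and IDH3G to 0.15 under quantile normalization. The call for IDH3G was also lost without control replicate 1, control replicate 3 or MT-treated replicate 2 (adjusted p = 0.0815, 0.0828 and 0.0723 by limma).

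Of the 2-oxoglutarate dehydrogenase complex, the members OGDH and DLST were listed at low levels, whereas DLD, the component it shares with pyruvate dehydrogenase and no member here, was at 86.7 ± 1.9 TPM in control and 91.7 ± 8.12 TPM in MT-treated libraries (SD, n = 3). OGDH, its decarboxylating component, was at 0.56, 0.47 and 0.56 TPM in control and at 2.35, 2.20 and 2.09 TPM in MT-treated libraries. Its mean TPM was 4.18-fold higher in the MT-treated group, but the fitted difference of 1.07 turned to -1.28 under quantile normalization, and OGDH passed the filter only through the group where it was higher. DLST, the succinyltransferase of the complex, was at 0 in the 3 control libraries and at 2.46, 2.46 and 1.93 TPM in the MT-treated libraries, and its fitted difference also turned negative, to -0.26, under quantile normalization. Both genes stood at or below percentile 26.8 of detected genes.

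Succinyl-CoA synthetase pairs a shared alpha subunit (SUCLG1) with a beta subunit that sets whether ATP (SUCLA2) or GTP (SUCLG2) is made. SUCLG1 was at 104, 101 and 95.8 TPM in control and at 156, 149 and 153 TPM in MT-treated libraries, and it rose 1.52-fold (log2 fold change 0.60 ± 0.037, SE, limma, Benjamini-Hochberg adjusted p = 6.49e-06). SUCLA2 was at 121, 123 and 120 TPM in control and at 62.2, 59.3 and 58.3 TPM in MT-treated libraries, and it fell 2.03-fold (log2 fold change -1.01 ± 0.030, SE, adjusted p = 1.49e-07). SUCLG2 went from 107.5 ± 2.52 to 81.3 ± 0.8 TPM (log2 fold change -0.40, adjusted p = 5.38e-06), a direction that turned to 0.08 under median centring. Thus the shared subunit and the ATP-forming beta subunit differed between groups in opposite directions under every scaling tried.

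Fumarase and malate dehydrogenase close the cycle. FH went from 257.8 ± 2.19 to 186.3 ± 1.66 TPM (log2 fold change -0.47, limma, Benjamini-Hochberg adjusted p = 2.2e-07), and under median centring its difference was 0.01 with an adjusted p of 0.488. MDH2, the most abundant matrix member, was at 656, 639 and 661 TPM in control and at 685, 675 and 689 TPM in MT-treated libraries. It rose by a small amount, 1.05-fold (log2 fold change 0.07 ± 0.017, SE, adjusted p = 0.00827), and kept that direction under the other scalings.

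The cytosolic counterparts MDH1, IDH1 and ACO1 and pyruvate carboxylase, 4 members in all, were lower at the deposited scale. Of all tested genes 34.1% were lower, and of those above 0 in all libraries 52.3%. MDH1, the cytosolic malate dehydrogenase of the malate-aspartate shuttle and the most abundant of all 38 listed members, was at 1225, 1200.1 and 1214 TPM in control and at 880, 853 and 863 TPM in MT-treated libraries. It was 1.40-fold lower (log2 fold change -0.49 ± 0.015, SE, limma, Benjamini-Hochberg adjusted p = 1.83e-07) but -0.0080 with an adjusted p of 0.637 under median centring. IDH1, the cytosolic NADPH-forming isocitrate dehydrogenase, was at 150.2, 153 and 153 TPM in control and at 112, 108 and 113 TPM in MT-treated libraries (log2 fold change -0.45, adjusted p = 2.62e-06; 0.03 under median centring). ACO1, the cytosolic aconitase that doubles as an iron sensor, was at 6.06, 6.25 and 6.07 TPM in control and at 2.01, 2.13 and 1.79 TPM in MT-treated libraries. It fell 3.10-fold with a log2 fold change of -1.26 ± 0.051 (SE, adjusted p = 7.13e-07). That value was -0.78 under median centring and -2.66 after quantile normalization. Pyruvate carboxylase (PC), which refills the cycle with oxaloacetate, went from 20.6 ± 0.0503 to 17.9 ± 0.754 TPM (log2 fold change -0.19, adjusted p = 0.00227), and it was 0.29 under median centring.

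Fatty acid oxidation begins with activation by the long-chain acyl-CoA synthetases. Of these, 2 members were lower and 1 was at 0 in the controls (66.7% and 33.3%, against 34.1% and 33.8% of all tested genes). ACSL1 was at 0 in the 3 control libraries and at 11.9, 13.2 and 12.9 TPM in the MT-treated libraries. ACSL3, an isoform of the endoplasmic reticulum and lipid droplets, was at 143, 144 and 143 TPM in control and at 73.7, 74.5 and 71.7 TPM in MT-treated libraries. ACSL4, which prefers arachidonate, was at 64.7, 61.7 and 60.5 TPM in control and at 28.9, 29.7 and 25.5 TPM in MT-treated libraries. ACSL3 and ACSL4 fell 1.96-fold and 2.22-fold (log2 fold changes -0.96 ± 0.021 and -1.13 ± 0.063, SE, limma, Benjamini-Hochberg adjusted p = 3.24e-08 and 3.91e-06). In MT-treated blastocysts ACSL3 still stood 5.57-fold to 6.18-fold above ACSL1 on the TPM scale.

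Carnitine acyltransferases carry the activated chains into the matrix. CPT1A (ENSBTAG00000021999), the outer-membrane enzyme that sets the rate of entry and is blocked by malonyl-CoA, was at 9.27, 9.35 and 20.3 TPM in control and at 10.1, 9.42 and 9.02 TPM in MT-treated libraries. The groups overlapped, and the log2 fold change was -0.32 ± 0.294 (SE, limma, Benjamini-Hochberg adjusted p = 0.32). That value rested on the third control library, without which it was 0.03 (adjusted p = 0.676), and it was 0.15 under median centring and -2.29 after quantile normalization. The other 5 libraries lay between 9.02 and 10.1 TPM. CPT1B, the muscle isoform, was at 0 in all 6 libraries. CPT2, which returns the chain to CoA inside the matrix, was at 13.6, 13.7 and 12.8 TPM in control and at 9.89, 9.76 and 10.1 TPM in MT-treated libraries. Its log2 fold change of -0.40 ± 0.038 (SE, adjusted p = 6.85e-05) turned to 0.08 under median centring and was -2.34 after quantile normalization. CRAT, which moves short acyl groups between CoA and carnitine, was at 0 in the control libraries and at 5.87, 5.66 and 5.96 TPM after MT.

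Acyl-CoA dehydrogenases take out the hydrogens of the first step of each round and differ in the chain length they accept. The 3 tested members were all lower, against 34.1% of all tested genes and 52.3% of those above 0 in all libraries. ACADVL, for very long chains, went from 41.1 ± 1.17 to 22.3 ± 0.577 TPM (log2 fold change -0.85, limma, Benjamini-Hochberg adjusted p = 6.08e-07). ACADM, for medium chains, was at 97.9, 86.7 and 83.2 TPM in control and at 30.9, 32.0 and 30.3 TPM in MT-treated libraries, 2.87-fold lower (log2 fold change -1.49 ± 0.064, SE, adjusted p = 9.72e-07). ACADS (ENSBTAG00000007484), for short chains, was at 35.3, 35.4 and 36.7 TPM in control and at 1.04, 1.73 and 1.55 TPM in MT-treated libraries, 24.9-fold lower (log2 fold change -3.93 ± 0.11, SE, adjusted p = 1.15e-07). The size of the fall increased in the order of ACADVL, ACADM and ACADS, and all 3 kept their direction under median centring and quantile normalization. ACADL and ACADSB, for long and for branched short chains, were at 0 in all 6 libraries and could not be tested. Other genes of this family, no members here and named after their values were seen, went in both directions. ACAD8 was at 2.85 TPM in control and 16.2 TPM in MT-treated libraries on average, and IVD at 15.1 and 6.52 TPM. ACAD9 was at 0 and 15.7 TPM and ACAD11 at 0.07 and 1.17 TPM, and both passed the filter only through the MT-treated group. Electrons from these enzymes pass to electron transfer flavoprotein, and its alpha subunit ETFA rose 1.33-fold, from 118, 113 and 117 TPM to 155, 156 and 152 TPM (log2 fold change 0.40 ± 0.023, SE, adjusted p = 4.34e-06). ETFDH, which hands the electrons to ubiquinone, was at 0 in 5 libraries and at 0.02 TPM in MT-treated replicate 1.

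The next steps of a round hydrate, oxidise and split the chain. HADHA and HADHB, the subunits of the trifunctional protein for long chains, lie next to each other on chromosome 11. HADHA was at 15.4, 15.7 and 18.0 TPM in control and at 16.7, 16.7 and 15.4 TPM in MT-treated libraries, and the groups overlapped (log2 fold change -0.0069 ± 0.0685, SE, limma, Benjamini-Hochberg adjusted p = 0.925), with 0.47 under median centring and -0.67 after quantile normalization. HADHB was at 56.6, 54.2 and 54.6 TPM in control and at 52.5, 47.5 and 49.3 TPM in MT-treated libraries. Its log2 fold change was -0.15 ± 0.043 (SE, adjusted p = 0.0159), a call that was lost without control replicate 1 or MT-treated replicate 3 (adjusted p = 0.0541 and 0.0538) and a direction that turned to 0.33 and 0.17 under median centring and quantile normalization. HADH, the dehydrogenase for shorter chains, fell 1.85-fold from 64.0 ± 1.4 to 34.5 ± 1.36 TPM (log2 fold change -0.87, adjusted p = 8.22e-07).

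The thiolases split acetyl-CoA from the chain, ACAA2 in mitochondria and ACAA1 in peroxisomes. No contrast is drawn between them, because ACAA1 passed the filter only through the MT-treated group. ACAA2 (ENSBTAG00000002863) was at 118.6, 119.2 and 119.4 TPM in control and at 29.3, 27.5 and 27.1 TPM in MT-treated libraries, a 4.26-fold fall (log2 fold change -2.05 ± 0.033, SE, limma, Benjamini-Hochberg adjusted p = 8.81e-09). ACAA1 (ENSBTAG00000018283) was at 0 in the control libraries and at 78.6, 74.2 and 82.8 TPM after MT. The ACAA2 to ACAA1 ratio was therefore 0.372, 0.370 and 0.327 in the MT-treated libraries, and no ratio can be given for controls. At 78.5 TPM on average, ACAA1 was the most abundant of the 7 members listed at 0 in the controls, at percentile 89.1 of detected genes in MT-treated blastocysts.

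Unsaturated chains need auxiliary enzymes that shift or reduce their bonds before a round can go on. All 3 of these members were at 0 in the controls, where 33.8% of all tested genes were. ECI1, the mitochondrial enoyl-CoA isomerase, was at 24.8, 23.4 and 23.9 TPM in the MT-treated libraries. ECI2, the isomerase with a peroxisomal form, was at 17.8, 19.5 and 21.1 TPM. DECR1, the mitochondrial dienoyl-CoA reductase, was at 1.96, 1.57 and 1.71 TPM. The fitted difference of DECR1, alone of the 3, turned negative, to -0.39, under quantile normalization.

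Summed over members, less of the deposited TPM belonged to both arms in MT-treated blastocysts. The 16 members of the citric acid cycle arm summed to 3594, 3544 and 3593 TPM in control and to 2909, 2849 and 2895 TPM in MT-treated libraries, or 0.806 of the control level. The fatty acid oxidation arm summed to 776, 758 and 772 TPM and to 606, 599 and 596 TPM, or 0.781 of the control level. Each difference was larger than the spread between libraries, with an exact two-sided permutation p = 0.1, the smallest that 3 against 3 libraries can give, and 0.108 after adjustment over 13 sums. Under median centring the sums of both arms were higher in the MT-treated group, by 0.17 and 0.12 on the log2 scale. The citric acid cycle arm made up 82.3% ± 0.067 of the members' TPM in control and 82.8% ± 0.16 in MT-treated libraries (SD, n = 3). The fatty acid oxidation arm held 17.7% and 17.2%, but its members above 0 in the controls held 17.7% and 13.1%. MDH1 and MDH2 carried much of the sum, and without them the citric acid cycle arm went from 1712 ± 6.14 to 1336 ± 12.9 TPM. Without the 6 members listed at 0 in controls, the fatty acid oxidation arm went from 768.8 ± 9.38 to 458.0 ± 9.45 TPM, or 0.596 of the control level.

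**Figure D3:**
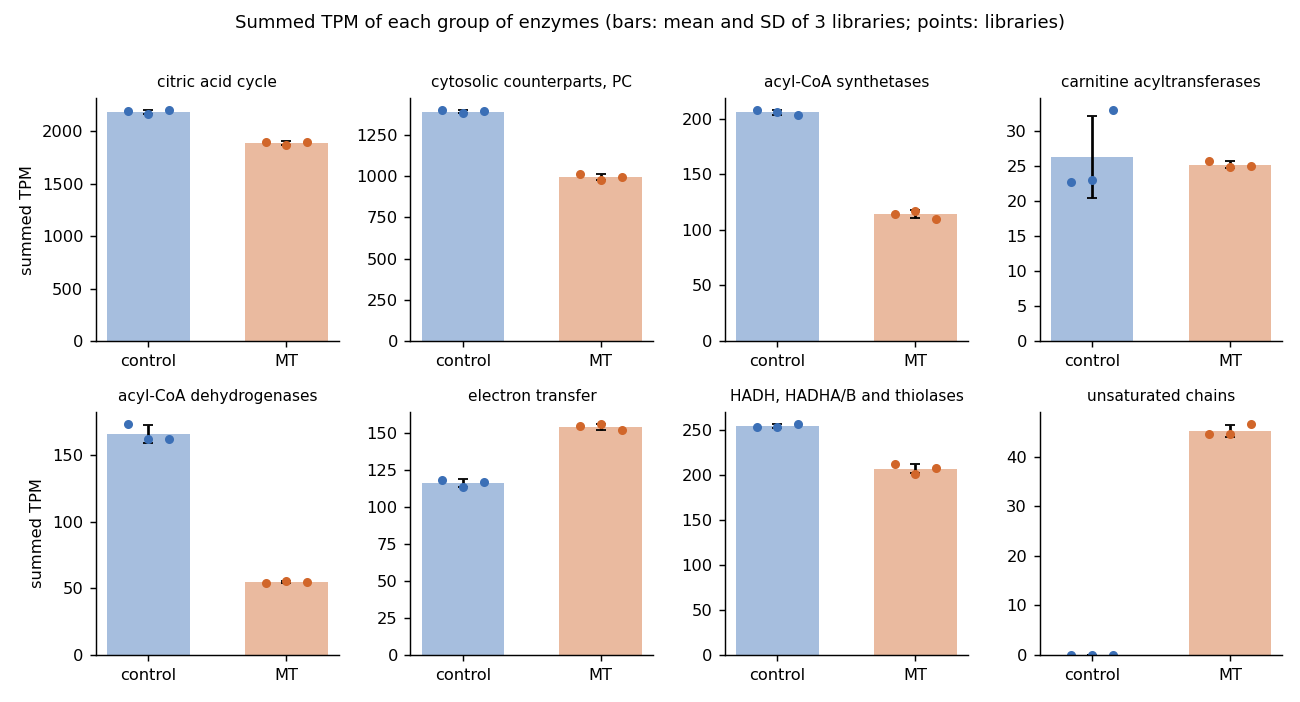
Summed TPM of the members of each role in control and MT-treated libraries, with bars for the mean of 3 libraries, error bars for the SD and points for single libraries, each panel on its own axis from 0. The acyl-CoA dehydrogenases show the lowest MT-treated level relative to control (0.33), electron transfer (ETFA) and the enzymes for unsaturated chains are higher, and the carnitine acyltransferases overlap, all at the deposited TPM scale.

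By role, the sum of the acyl-CoA dehydrogenase members was lowest relative to control, at 166.2 ± 6.79 and 54.8 ± 0.592 TPM, or 0.33 of the control level (SD, n = 3). The acyl-CoA synthetases followed at 0.554, from 205.7 ± 2.24 to 114.0 ± 3.68 TPM, and stood at 0.493 without ACSL1. The cytosolic counterparts with pyruvate carboxylase were at 0.716, the HADH, HADHA, HADHB and thiolase group at 0.813 (0.505 without ACAA1, from 254.5 ± 2.13 to 128.4 ± 4.52 TPM) and the matrix citric acid cycle at 0.864 of the control level. ETFA was at 1.33. The carnitine acyltransferases stood at 26.3 ± 5.86 and 25.2 ± 0.514 TPM and overlapped (exact two-sided permutation p = 1.0, n = 3), and were at 0.737 of the control level without CRAT. The auxiliary enzymes summed to 44.5, 44.5 and 46.7 TPM in MT-treated libraries.

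Ratios between partner genes within a library were used next, because a common scale factor largely cancels in them. Of 15 pairs, 10 had both genes above 0 in every library, and in 8 of these the groups did not overlap. Among single genes 96.1% did not overlap, and no such share was computed for ratios of pairs. Each of the 8 had an exact two-sided permutation p = 0.1, and 0.125 after Benjamini-Hochberg adjustment over the 15. The other 5 pairs, ACAA2 to ACAA1, ACSL3 to ACSL1, OGDH to DLST, ECI1 to ECI2 and CPT1A to CPT1B, had a gene at 0 in the controls, which leaves the control ratio to the pseudocount, and no comparison is made for them. Of the 10, only IDH2 to IDH1 differed by at least 1 on the log2 scale. The IDH2 to IDH1 ratio of TPM was 0.417, 0.403 and 0.431 in control and 0.012, 0.0175 and 0.0165 in MT-treated libraries. As log2 of (TPM + 1), the ratio went from -1.25 ± 0.048 to -5.38 ± 0.19 (SD, n = 3), so the mitochondrial member of the NADPH-forming pair was lower relative to the cytosolic one. The malate dehydrogenases differed the other way, with an MDH2 to MDH1 log2 ratio of -0.894 ± 0.017 in control and -0.34 ± 0.018 in MT-treated libraries.

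Ratios between subunits of isocitrate dehydrogenase and of succinyl-CoA synthetase did not overlap between the groups, and that of the trifunctional protein did. The IDH3A to IDH3B log2 ratio went from 0.368 ± 0.023 to 0.676 ± 0.036, and the IDH3B to IDH3G ratio from 1.87 ± 0.031 to 1.31 ± 0.039 (SD, n = 3). SUCLA2 to SUCLG2 crossed from 0.174 ± 0.042 to -0.435 ± 0.038, so the ATP-forming beta subunit was the more abundant of the pair in control and the GTP-forming one in MT-treated libraries. The HADHA to HADHB ratio overlapped between groups, at -1.69 ± 0.14 and -1.56 ± 0.091 (exact two-sided permutation p = 0.3), and CPT1A to CPT2 overlapped as well, at -0.127 ± 0.66 and -0.056 ± 0.084 (p = 1.0, exact). ACADM to ACADVL went from 1.10 ± 0.14 to 0.458 ± 0.075, and ACSL4 to ACSL3 from -1.19 ± 0.049 to -1.36 ± 0.087. In OGDH to DLST the MT-treated ratios were 0.955, 0.894 and 1.08 on the TPM scale, and in ECI1 to ECI2 they were 1.40, 1.2 and 1.13.

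**Figure D4:**
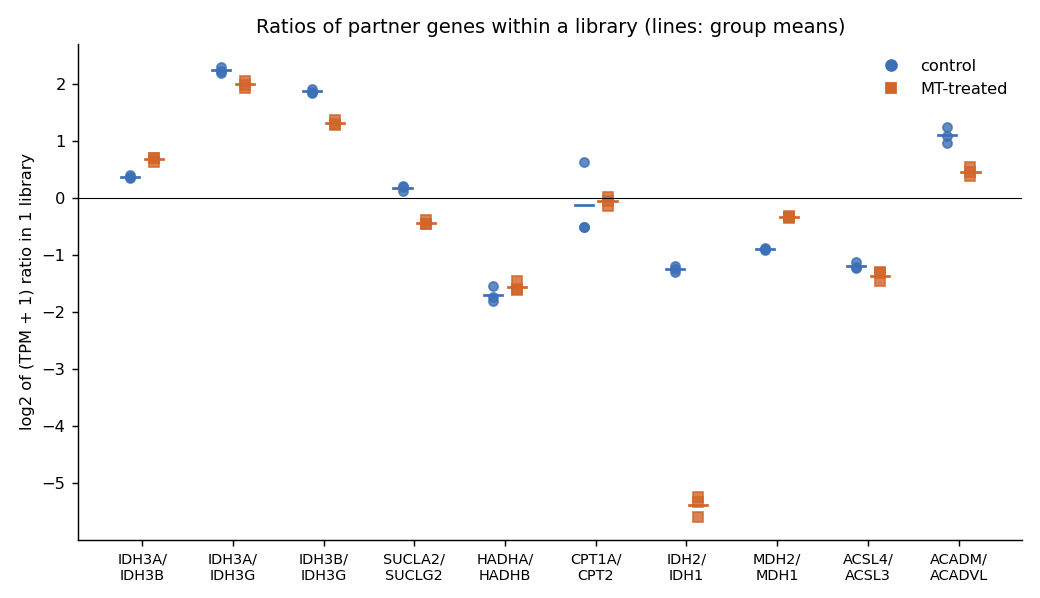
Ratio of partner genes within each library, as log2 of (TPM + 1) on the vertical axis, for 10 pairs whose members were both above 0, with circles for control and squares for MT-treated libraries and lines at the group means. IDH2/IDH1 stands at -1.25 in control and -5.38 in MT-treated libraries, MDH2/MDH1 at -0.894 and -0.34, and HADHA/HADHB and CPT1A/CPT2 overlap between the groups.

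Genes beside the citric acid cycle, such as pyruvate dehydrogenase, its kinases and phosphatases and succinate dehydrogenase, were also counted. Of 35 names, 30 were tested, 18 were higher and 9 lower (60.0% and 30.0%, against 61.6% and 34.1% of all genes), with a median log2 fold change of 0.22, and the counts were 21 and 7 under median centring, against 70.4% and 25.4% of all genes. After quantile normalization they were 18 and 10, against 46.4% and 44.4%. By at least 2-fold, 30.0% were higher and 13.3% lower, against 51.0% and 19.6%, and among the 24 of these genes above 0 in all libraries 54.2% were higher and 33.3% lower, against 40.6% and 52.3%. The phosphatase PDP2, which activates pyruvate dehydrogenase, was at 0.38, 0.33 and 0.31 TPM in control and at 17.3, 17.2 and 16.4 TPM in MT-treated libraries, and the kinase PDK1, which inactivates it, at 77.1, 73.6 and 70.3 TPM and at 10.1, 10.2 and 9.87 TPM. PDK1 fell (log2 fold change -2.76, limma, Benjamini-Hochberg adjusted p = 5.22e-09), and PDP2 passed the filter only through the MT-treated group. PDHB, the beta subunit of pyruvate dehydrogenase, was at 179, 173 and 179 TPM in control and at 404, 400.5 and 385 TPM in MT-treated libraries (log2 fold change 1.16, adjusted p = 3.51e-08). Its alpha subunit PDHA1 was at 104, 104 and 104 TPM and at 149, 154 and 148 TPM, and rose as well (log2 fold change 0.53, adjusted p = 5.97e-07). PDHX, which anchors a further component of the complex, went from 45.7 to 24.8 TPM on average and fell (log2 fold change -0.86, adjusted p = 9.82e-07). PDK1, PDHB, PDHA1 and PDHX kept these directions under every scaling.

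Of the subunits of succinate dehydrogenase, SDHA, SDHC and SDHD rose (log2 fold changes 0.30, 0.19 and 0.25, limma, Benjamini-Hochberg adjusted p = 2.25e-05, 0.000492 and 7.06e-06) and SDHB fell (-0.52, adjusted p = 7.14e-08), with -0.05 for SDHB under median centring. Those 4 genes and PDHB, PDHA1 and PDHX were named after their values were seen. PCK2 and ME3, the mitochondrial phosphoenolpyruvate carboxykinase and malic enzyme, were at 0 in controls and at 15.04, 13.9 and 15.6 TPM and 14.0, 14.1 and 14.0 TPM in MT-treated libraries. D2HGDH, which oxidises D-2-hydroxyglutarate to 2-oxoglutarate, was at 29.5, 28.8 and 29.9 TPM in control and at 0 in the MT-treated libraries.

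Of 46 further genes of fatty acid handling, 36 were tested, 25 were higher and 11 lower (69.4% and 30.6%, against 61.6% and 34.1% of all tested genes), with a median log2 fold change of 1.18 against 1.12. After quantile normalization the counts were 15 and 16, against 46.4% and 44.4% of all genes, so the list lay near the whole table in both settings. Of the 36 tested genes, 11 (30.6%) were at 0 in the controls, against 33.8% of all tested genes. The carnitine carrier SLC25A20, which links CPT1A and CPT2 across the inner membrane, was at 0 in the controls and at 31.8, 31.2 and 32.0 TPM in MT-treated libraries. The peroxisomal PECR and ACOX3 were likewise at 0 in controls and at 43.5, 41.7 and 43.3 TPM and 42.3, 41.0 and 44.2 TPM. In the other direction, the dienoyl-CoA isomerase ECH1 was at 71.0, 69.8 and 72.4 TPM in control and at 0 in MT-treated libraries. MCEE, a racemase in the use of odd chains, fell from 117, 126 and 117 TPM to 19.0, 18.9 and 18.1 TPM (log2 fold change -2.62, limma, Benjamini-Hochberg adjusted p = 6.3e-09). The fatty acid transporter CD36 was at 0 in all 6 libraries, and PPARA, a transcription factor of fatty acid oxidation, did not exceed 0.02 TPM (both named after their values were seen).

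Glycolysis and the respiratory chain, the pathways on either side, were used as further background. Of 25 glycolytic genes, 21 were tested, with 11 higher and 10 lower (52.4% and 47.6%, against 61.6% and 34.1% of all tested genes), and with 16 higher and 5 lower under median centring, against 70.4% and 25.4%. Quantile normalization gave 10 higher and 11 lower, against 46.4% and 44.4%, and the median log2 fold change turned from 0.69 to -0.13. Among the 16 genes above 0 in all libraries 6 were higher and 10 lower (37.5% and 62.5%, against 40.6% and 52.3%). PFKL, the liver phosphofructokinase, went from 0.03, 0 and 0 TPM to 42.8, 42.3 and 46.4 TPM, and PFKP was at 0 in controls and at 10.5, 11.4 and 9.98 TPM in MT-treated libraries. ENO3, a muscle enolase, was at 35.3, 33.7 and 34.6 TPM in control and at 13.8, 14.6 and 14.6 TPM in MT-treated libraries. Pyruvate kinase PKM was at 805, 797 and 831 TPM and at 468, 446 and 477 TPM, and the glucose transporter SLC2A1 at 192, 188 and 193 TPM and at 115, 110.2 and 114 TPM. ENO3, PKM and SLC2A1 fell (log2 fold changes -1.21, -0.81 and -0.75, limma, Benjamini-Hochberg adjusted p = 1.3e-07, 4.84e-07 and 1.4e-07). Of 75 nuclear genes for subunits of the respiratory chain and ATP synthase, 72 were tested, with 30 higher (41.7%), 31 lower (43.1%) and 11 in neither direction, against 61.6% and 34.1% of all tested genes. By at least 2-fold, 3 were higher and 2 lower (4.17% and 2.78%, against 51.0% and 19.6%). Their median log2 fold change was -0.0031, and under median centring 59 were higher and 8 lower, against 70.4% and 25.4% of all genes. The members' median of -0.35 lay below that of these subunits at the same scale.

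**Figure D5:**
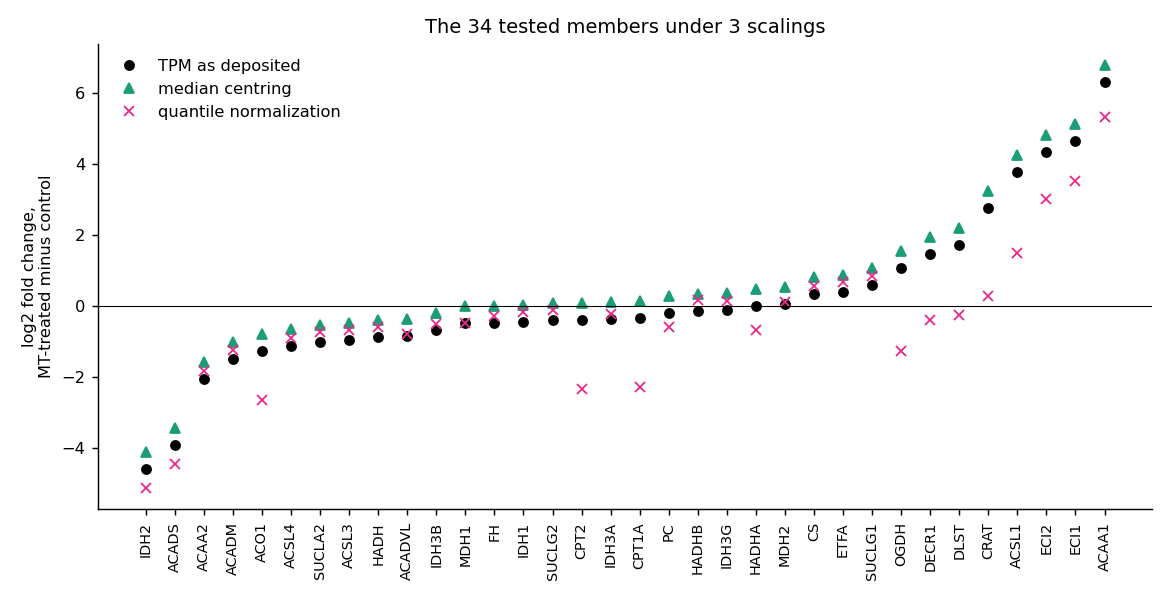
Log2 fold change (MT-treated minus control) of the 34 tested members at the deposited TPM scale (circles), after median centring (triangles) and after quantile normalization (crosses), ordered by the first. IDH2, ACADS, ACAA2 and ACADM stay below 0 and ACAA1, ECI1, ECI2 and ACSL1 above 0 under all 3 (fitted values of the 7 members at 0 in controls depend on the pseudocount), while 10 members including IDH3A, FH and CPT2 change sign under median centring and OGDH, DLST, DECR1, IDH3G and HADHB under quantile normalization.

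Replicates were tight for the members that were detected throughout. For the 27 members above 0 in all libraries, coefficients of variation had a median of 2.21% among controls and of 3.40% among MT-treated libraries, against 3.27% and 4.03% for the 6925 tested genes with the same property. The coefficient was widest for CPT1A in control, at 49.0%, and it was 24.9% for ACADS and 17.9% for IDH2 in MT-treated libraries, where both were under 2 TPM. The members CS, IDH3B, DLST, MDH2, MDH1, PC, CRAT and ECI2 overlap another protein-coding gene in the RefSeq annotation, and the sources used here do not say whether reads were counted by strand, so reads from a shared stretch cannot be told apart.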

How the data were processed

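RNA-seq libraries of 3 control and 3 MT-treated pools of blastocysts were analysed. According to the study's methods and the submitters' processing notes, reads passed FastQC 0.11.9 and were aligned with STAR 2.7.9a and counted with featureCounts (Subread 1.6.3). The notes name the bovine build ARS-UCD1.2 and the paper a later one. TPM values for each gene in each library were deposited by the authors, and how counts became TPM is not given in the sources used here. TPM holds no counts, so the counting error of a value is unknown and no interval for it is given. Sequencing depth per replicate is listed in the paper's supplement and was not used here.

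The labels gave the groups and the replicate numbers. Values were transformed to log2(TPM + 1), and genes with at least 1 TPM in at least 3 libraries were fitted with limma 3.58.1 (eBayes with an intensity trend, R 4.3.3). Benjamini-Hochberg adjustment ran over all 11953 genes. Exact permutation tests, two-sided, compared the sums and the ratios of partner genes, of which 15 of 16 could be computed, since ETFB was not analysed here. Fold changes understate the change of low genes. The fit was tested on simulated data. Tables and figures used Python 3.11.15 with pandas 2.3.3, numpy 2.4.6 and matplotlib 3.10.9.

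The members and lists were chosen with earlier results of these data known. Per-library values are given for members with a group at 0, the 6 highest and 6 lowest fold changes, both genes of pairs whose log2 ratio differs by at least 1, and CS, OGDH, CPT1A, CPT1B, CPT2, HADHA and HADHB, and from each list for up to 3 rises and 3 falls. Values for some further members were added, and a few list genes are not reported here. Gene neighbours came from the RefSeq table for a different build, in which all 40 symbols matched. The alternatives tried were no filter, a minimum of 5 TPM, a pseudocount of 0.1, quantile normalization, median centring, rescaling without mitochondrially encoded genes (37 rows), no intensity trend, a replicate block and each library left out in turn. After seeing the data, a fit of only those genes above 0 in all 6 libraries and sums by role without members at 0 in all controls were added.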

Additional observations from a re-analysis of the deposited data

How the results depend on the processing

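The counts of members called (12 higher and 20 lower, 8 and 7 of them by at least 2-fold) were the same with a pseudocount of 0.1, no filter, no intensity trend and a replicate block. Members higher fell to 5 of 27 among genes above 0 in all 6 libraries (40.6% of all such genes), because 7 members were left out. They were 9 of 31 with a minimum of 5 TPM (57.5% of all genes). Members lower fell to 11 of 34 under median centring (25.4% of all genes) and were 18 of 34 after rescaling (32.8%). The count higher by at least 2-fold was 5 of 31 with a minimum of 5 TPM, 4 of 34 after quantile normalization and 1 of 27 among genes above 0 in all 6 libraries. Of all genes in these settings 45.7%, 25.8% and 22.2% were higher by at least 2-fold. The count lower by at least 2-fold was 4 of 34 under median centring, against 14.3% of all genes. With each library left out in turn the counts were 12 to 12 higher, 18 to 20 lower, 8 to 8 higher by at least 2-fold and 6 to 7 lower by at least 2-fold.

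The summed TPM of the citric acid cycle arm (log2 difference -0.31) turned to 0.169 and that of the fatty acid oxidation arm (-0.357) to 0.122 under median centring, and with a library left out they ranged from -0.317 to -0.302 and from -0.367 to -0.35. Among the ratios, HADHA to HADHB (0.139) turned to -0.838 after quantile normalization. CPT1A to CPT1B, equal to CPT1A itself as CPT1B was at 0, ranged from -0.502 to 0.0252 and CPT1A to CPT2 from -0.12 to 0.45 with a library left out, the sign of the first turning without control replicate 3 and of the second without control replicate 1 (-0.117) or 2 (-0.12). The other 8 ratios between genes above 0 in all libraries kept their sign under every alternative run.

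Under median centring the log2 fold changes of IDH3A (0.11), IDH3G (0.36), SUCLG2 (0.081), FH (0.013), IDH1 (0.029), PC (0.29), CPT1A (0.15), CPT2 (0.084), HADHA (0.47) and HADHB (0.33) turned positive. After quantile normalization IDH3G (0.15), OGDH (-1.28), DLST (-0.26), HADHB (0.17) and DECR1 (-0.39) reversed, and CPT1A (-2.29) and HADHA (-0.67) became lower calls. HADHA, at -0.0069 in the report, also reversed after rescaling (0.047) and ranged from -0.0458 to 0.0606 with a library left out, being positive without control replicate 3 or MT-treated replicate 3 (0.030), and CPT1A without control replicate 3 (0.03). Rescaling ended the calls of IDH3G and HADHB (limma adjusted p = 0.152 and 0.0776). The cause was not tested.

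Samples with the same replicate number did not deviate together over the 11953 tested genes (correlations -0.0115, -0.00068 and 0.0588), so the fit was left unpaired. Over 1006 genes at 100 TPM or more in all libraries, chosen after seeing the data, the correlations were 0.28, 0.388 and 0.494 for equal numbers and -0.363 to 0.0178 for unequal ones, so every library correlated best with its own number there. The methods state that control and MT-treated oocytes were handled together in each run, but no source says that equal numbers mark a run, so the pairing is a hint from the data. The replicate block left 12 members higher and 20 lower and changed the call of no member.

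Unknown read numbers limit the members under about 5 TPM most, among them IDH2 and ACADS in the MT-treated group, OGDH, DLST and DECR1. With 3 libraries per group, single sums and ratios cannot reach an exact p under 0.1, and in the paired form under 0.25.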
